A study of Mus musculus with 2 samples.

Results

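The genes described here are the solute carriers of mouse macrophages that move sugars, lactate, nucleosides, nucleotide sugars, inorganic ions, vitamins and organic anions across membranes. They were chosen by name: a gene belongs if its symbol starts with Slc2a, Slc4a, Slc5a, Slc8a, Slc9a, Slc12a, Slc15a, Slc16a, Slc17a, Slc19a, Slc20a, Slc22a, Slc26a, Slc28a, Slc29a, Slc31a, Slc33a, Slc35, Slc37a, Slc41a, Slc44a, Slc45a, Slc46a, Slc48a or Slco and if the array annotation gives it a probe set of its own. This gave 184 of the 18193 genes on the array, read by 352 probe sets and sorted into 23 families. Of these, 4 are not carriers but carry a carrier's name: the scaffold genes Slc9a3r1 and Slc9a3r2, the nuclear adaptor gene Slc4a1ap and the pseudogene Slc2a4rg-ps.

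The cells were macrophages of the mouse strain C57BL6, grown from bone marrow in medium with serum and macrophage colony-stimulating factor. Both groups share this culture. The control group was left untreated and the LPS group received lipopolysaccharide, the outer membrane component of Gram-negative bacteria that Toll-like receptor 4 senses, at a dose and for a time that the labels do not give. Each group is 1 Affymetrix Mouse Genome 430 2.0 array, so no difference has a replicate check, no test was possible, and every value describes these 2 arrays.

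Solute carriers are membrane proteins that let small molecules cross a membrane along their gradient or coupled to sodium ions, protons or a counter-substrate. Some sit in the plasma membrane and set what a cell can take up or release, such as glucose and lactate. Others sit in the Golgi apparatus, where they supply nucleotide sugars for glycan synthesis, or in lysosomes and phagosomes, where they return peptides, nucleosides, sialic acid, haem or metal ions to the cytosol. Macrophages digest large amounts of cell debris, and on contact with LPS they are known to turn to glucose uptake and lactate release.

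The values are MAS5 signals per probe set, in linear intensity units. Where a gene has several probe sets, the one that is brightest on average over both arrays (log2 scale) stands for it, and a ratio is log2 of LPS minus log2 of control. The floor is each array's own median signal, 35.1 for control and 26.7 for LPS. Signals below it were raised to it before taking ratios, so that a fold from such a gene is a bound and reads "at least". The whole LPS array lay lower: the 11722 measured genes, those whose chosen probe set was not under both floors, had a median log2 ratio of -0.42. A median-centred ratio is therefore given beside the ratio as deposited, and it shows a gene's place relative to this shift. All 9 macrophage markers with a probe set, among them Adgre1, Csf1r, Cd68 and Lyz2, were above the floor on both arrays, with summed signals of 45148 and 54393. Markers of 7 other blood or stromal cell types summed to between 23.5 and 470.3 in control and between 40.2 and 728.9 with LPS, except for megakaryocyte markers (6782 and 5661), a sum made up mostly of Pf4. Of 5 red cell markers 3 were measured: Epor (82.4 and 66.3) lay above both floors, and Klf1 (40.0) and Ermap (27.3) above the LPS floor alone. Alas2 and Hba-a1 were under both floors, as was the chosen probe set of the red cell bicarbonate carrier gene Slc4a1. The part of other cells in the results was not tested. In a bulk sample, fewer cells of a type and less RNA per cell cannot be told apart.

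Of the 184 carrier genes, 101 were measured. Of these, 81 reached the floor on both arrays, 12 on the LPS array alone and 8 on the control array alone. The chosen probe sets of the other 83 had signals of at most 30.7 in control and 24.6 with LPS, and no fold is given for these genes. In 4 of the 83 another probe set reached a floor on 1 array: Slc9a3 (58.4) and Slc16a4 (50.1) in control, and Slc4a8 (33.4) and Slc4a4 (27.5) with LPS. Measured genes had to reach the floor in at least 1 group, so their counts describe the part of the list that these arrays could read.

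More carrier genes were lower than higher on the LPS array, as was true of the genes on it in general. At least 2-fold differences were found for 8 carrier genes on the higher side and 38 on the lower side, out of 101. The background over all measured genes was 8.22% higher and 26.2% lower, against 7.92% and 37.6% of the carrier genes. The median log2 ratio of the carriers was -0.62. After median centring, 10 were higher (9.90%, with a background of 13.1%) and 22 lower (21.8%, with a background of 15.3%), and the median was -0.20. After loess, which removes the shift separately at each brightness, 12 were higher (background 13.8%) and 19 lower (background 12.8%). At 3-fold, 7 carriers were higher (background 5.22%) and 17 lower (background 12.2%), and at 1.5-fold 10 were higher (background 13.0%) and 51 lower (background 42.0%). At 3-fold the carriers' shares were 6.93% higher and 16.8% lower, at 1.5-fold 9.90% and 50.5%, and after loess 11.9% and 18.8%. The share of lower genes was thus above the background under each of these 5 settings, and no test of this difference was made. The same background applies to each family and list count below: 8.22% higher and 26.2% lower as deposited, and 13.1% and 15.3% after centring. None of those counts was tested against it, and many rest on few genes. The measured carriers were also dimmer than the measured genes as a whole, with a median mean log2 signal of 7.17 against 7.67.

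**Figure D1:**
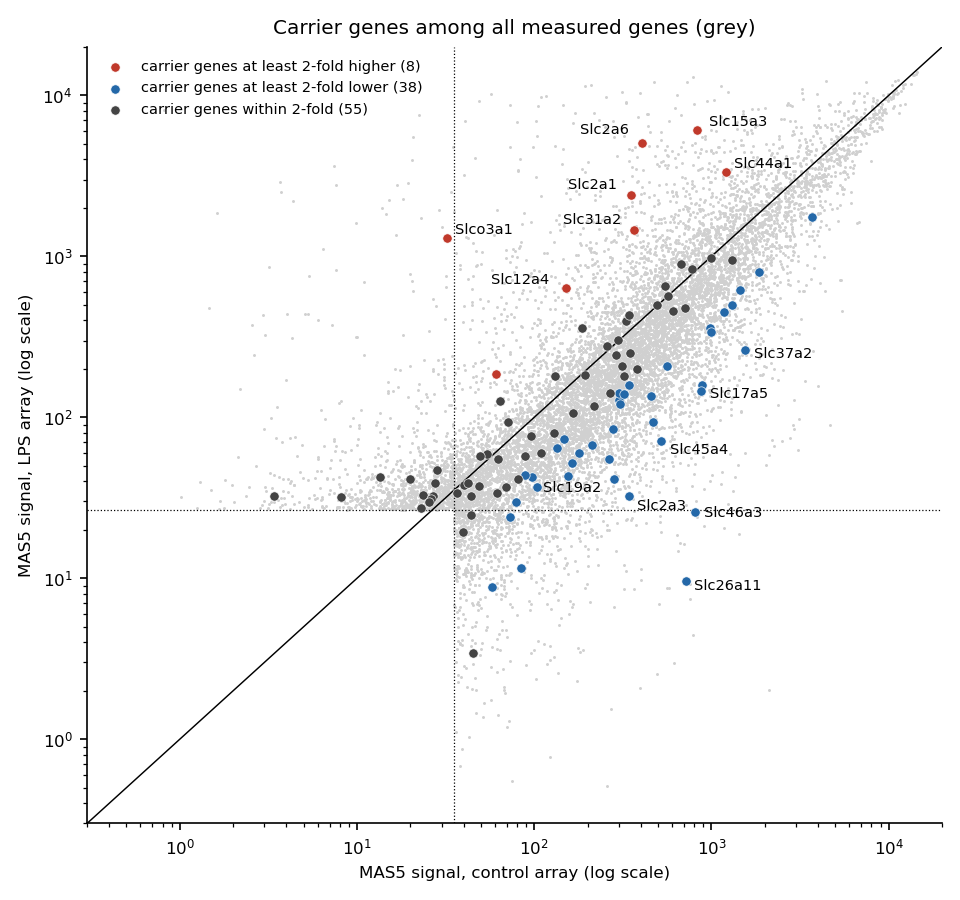
MAS5 signal on the control array (x, log scale) against the LPS array (y, log scale) for all 11722 measured genes (grey) and the 101 measured carrier genes (coloured by a 2-fold difference), 1 point per gene, with the line of equal signal and dotted lines at the floors of 35.1 and 26.7. The 8 red genes stand above the line, and the 38 blue genes below it include Slc46a3 and Slc26a11 far from it.

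**Figure D2:**
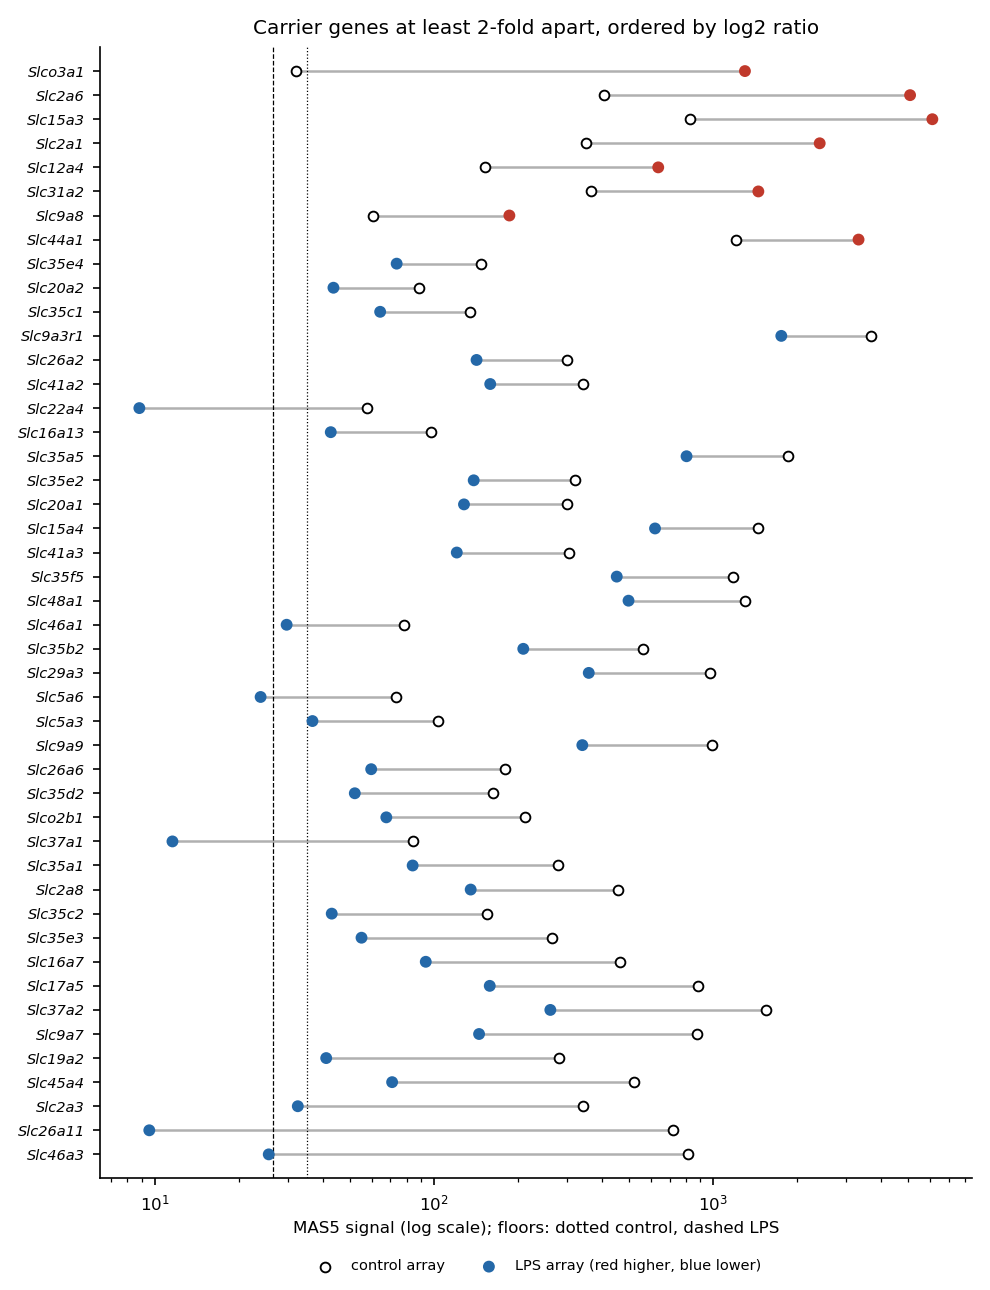
MAS5 signals (x, log scale) of the 46 carrier genes at least 2-fold apart, ordered by log2 ratio, with open circles for the control array and filled circles for the LPS array (red higher, blue lower); the vertical lines are the floors. Slco3a1 is under the control floor and at 1302 with LPS, while Slc46a3 and Slc26a11 are under the LPS floor.

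The hexose carriers held large differences in both directions. Of 7 measured, 2 were at least 2-fold higher and 2 lower, also under each of the 5 scalings tried. Slc2a6 encodes GLUT6, a hexose carrier of lysosomal membranes, and had signals of 408 in control and 5082 with LPS, 12.4-fold higher (centred log2 ratio 4.06). Slc2a1, whose product GLUT1 is the common route of glucose into cells, had signals of 351 and 2412, 6.87-fold higher (centred 3.20). Its 3 probe sets lay close together, between 2.78 and 2.87 on the log2 scale. Slc2a3, which encodes the high-affinity glucose carrier GLUT3, went the other way, with signals of 341 and 32.6, 10.5-fold lower (centred -2.97). Its second measured probe set was at -2.46, a bound, since its LPS signal of 14.1 was under the floor. The remaining Slc2a3 probe sets (17.4 and 1.37, and 18.3 and 7.72) were under both floors. Neither measured Slc2a3 probe set has a plain name ending in _at with no letter before it. Slc2a8, for the intracellular hexose carrier GLUT8, had signals of 456 and 136, 3.36-fold lower (centred -1.33). The other 3 measured members, Slc2a9, Slc2a4 and Slc2a12, lay between -0.95 and -0.09, and the ratios of Slc2a4 and Slc2a12 turn positive after centring. The genes of GLUT1 and GLUT6 were thus high on the LPS array, and those of GLUT3 and GLUT8 on the control array.

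Upstream sequence is shown where a carrier more than 4-fold apart, or a lactate carrier, had a letter match to a searched motif within the 250 bases before its transcription start. The search covered ACGTG, the core of the hypoxia response element, CACGTG, the E-box that Myc and TFE factors bind and that contains ACGTG, and the kappaB motif of NF-kB, each on both strands. In the RefSeq promoter table (GRCm38.p6), 16.6%, 6.02% and 7.25% of 32851 promoters held them in that order. Of the 15 carrier genes at least 4-fold apart, 9 were in the table (Slc2a1, Slc2a6, Slc12a4, Slc9a7, Slc17a5, Slc19a2, Slc35e3, Slc37a2 and Slc46a3) and 6 were not (Slco3a1, Slc15a3, Slc26a11, Slc2a3, Slc45a4 and Slc16a7). Of the 9, 2 held ACGTG (Slc2a1 and Slc35e3), 1 held CACGTG (Slc35e3) and 1 held kappaB (Slc19a2). A match is a description of letters, not a measured site. The Slc2a1 stretch, at chr4:119108665-119108744 on the plus strand, runs from 80 bases before the start to the base before it, with the ACGTG match in capitals.
Slc2a1: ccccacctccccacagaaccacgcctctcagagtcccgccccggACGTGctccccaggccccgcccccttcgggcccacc

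As deposited, the monocarboxylate carriers showed small differences on the higher side and larger ones on the lower side. Slc16a3 encodes MCT4, the lactate exporter of glycolytic cells, and had signals of 64.3 and 126, 1.96-fold higher (centred 1.40). Slc16a1, for the lactate and pyruvate carrier MCT1, had signals of 186 and 359, 1.93-fold higher (centred 1.37). Both fell just short of 2-fold as deposited and passed it after centring, and after loess Slc16a3 stood at 1.73 and Slc16a1 at 1.60. With the floor at the 65th percentile Slc16a3 fell to 0.48 and Slc16a1 stayed at 0.95. With a pseudocount of 16 and no floor they were at 0.83 and 0.89. Each was read by 1 measured probe set. Slc16a7, for the pyruvate and lactate carrier MCT2, had signals of 466 and 93.6, 4.98-fold lower (centred -1.89, and -1.62 after loess). Slc16a10, an aromatic amino acid carrier gene, had signals of 775 and 835, and its 4 probe sets lay between -0.05 and 0.11. Of 7 measured, 0 were at least 2-fold higher and 2 lower (Slc16a7 and Slc16a13), but 2 higher and 1 lower after centring. Both lactate carriers with a ratio near 2-fold held ACGTG matches in the same 250 bases, and Slc16a1 held CACGTG too. The Slc16a3 stretch lies at chr11:120948987-120949066 and the Slc16a1 stretch at chr3:104638425-104638504, both on the plus strand, with all matches in capitals.
Slc16a3: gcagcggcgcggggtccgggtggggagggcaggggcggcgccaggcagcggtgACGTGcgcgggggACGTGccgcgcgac
Slc16a1: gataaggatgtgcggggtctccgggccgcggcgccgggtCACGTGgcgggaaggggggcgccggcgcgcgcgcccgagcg

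Genes that act on glucose and lactate inside the cell differed in both directions. Of 16 with a probe set, all measured, 5 were at least 2-fold higher and 3 lower, and 5 higher and 1 lower after centring. Pfkfb3, whose enzyme makes the activator of phosphofructokinase, had signals of 81.3 and 3429, 42.2-fold higher, with its other probe set at 2.70 on the log2 scale. The hexokinase gene Hk2 had signals of 283 and 1257, 4.44-fold higher. Txnip, whose product promotes removal of glucose carriers from the cell surface, had signals of 3658 and 722, 5.06-fold lower. The genes of accessory proteins that carry monocarboxylate carriers to the membrane, picked out after their values were seen, were Bsg (2325 and 1818) and Emb (2483 and 1138, 2.18-fold lower). The Bsg log2 ratio of -0.35 turns positive after median centring.

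Carriers of sugar phosphates and of the remaining sugars were within 2-fold or lower. Slc37a2, which encodes a sugar-phosphate exchanger of the endoplasmic reticulum in macrophages, had signals of 1553 and 262, 5.93-fold lower (centred -2.15). Slc37a1, of the same family, had signals of 84.2 and 11.6, at least 3.16-fold lower. Slc37a4, the glucose-6-phosphate carrier gene, lay at -0.63 (0.13 after loess) and Slc37a3 at 0.10, with its other probe set at -1.10. Slc45a4, of a family of proton-coupled sugar carriers, had signals of 523 and 71.0, 7.36-fold lower (centred -2.46), and its 3 probe sets were all lower, between -2.88 and -1.59. The sodium-coupled carriers Slc5a3, which imports the osmolyte myo-inositol, and Slc5a6, which imports biotin and pantothenate, had signals of 103 and 36.8 and of 73.0 and 24.0. These are 2.81-fold and at least 2.74-fold lower (centred -1.07 and -1.03). Neither passed 2-fold with quantile normalization (-0.94 and -0.97) or loess (-0.84 and -0.95). The other 8 genes of the Slc5 family were under both floors, and Slc5a2, Slc5a5 and Slc5a10 were near them.

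The equilibrative nucleoside carriers had no common direction. Slc29a3 encodes ENT3, which takes nucleosides out of lysosomes, and had signals of 979 and 359, 2.73-fold lower (centred -1.02), with a second probe set at -1.27. Slc29a1, for the plasma membrane carrier ENT1, had signals of 349 and 252, and its ratio was -0.47 as deposited but 0.15 after loess. Slc29a4 lay at 0.46 (1.21 after loess), and Slc29a2 and Slc28a3 were under both floors. Of 9 measured genes of nucleoside use, 4 were at least 2-fold higher and 2 lower, also after centring, while loess left 1 lower. Upp1, the uridine phosphorylase gene, had signals of 7.65, under the floor, and 826, at least 23.6-fold higher. Samhd1, whose enzyme breaks down deoxynucleotides, had signals of 1515 and 7693, 5.08-fold higher. The thymidine kinase gene Tk1, active in dividing cells, had signals of 587 and 105, 5.62-fold lower.

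The largest family, the Slc35 carriers of the Golgi and endoplasmic reticulum, lay almost wholly on the lower side as deposited. Among 20 measured members, 0 passed 2-fold on the higher side and 10 on the lower. After centring these counts were 0 and 5, and after loess 1 (Slc35d1) and 4. Over all measured genes, the lower share was 26.2% as deposited, 15.3% after centring and 12.8% after loess. The difference from this background was not tested. After centring, Slc35a3, Slc35a4, Slc35b1, Slc35b3 and Slc35d1 lay above 0. The family's median log2 ratio was -0.97, and it stayed below 0 under each of the 5 scalings, between -0.92 and -0.26. Slc35e3, whose substrate is not settled, had signals of 266 and 55.1, 4.82-fold lower (centred -1.85). Slc35c2 had signals of 156 and 43.1, 3.61-fold lower (centred -1.43), and its other measured probe set was lower too. Slc35a1, the carrier of CMP-sialic acid into the Golgi, had signals of 278 and 84.0, 3.30-fold lower (centred -1.30), and its second probe set was at -1.40. All 3 were lower by more than the array-wide shift, although Slc35a1 came to -0.97 after loess, just short of 2-fold.

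Other Slc35 genes were lower by amounts that the scaling decides, or not apart. Slc35d2, a UDP-N-acetylglucosamine carrier gene, had signals of 164 and 52.2, 3.14-fold lower (centred -1.23, and -0.89 after loess). Slc35a5 had signals of 1852 and 804, 2.30-fold lower, but its centred ratio was -0.78 and its 4 measured probe sets ran from -1.20 to 0.05. The other 5 past 2-fold, all lower, were Slc35b2, Slc35f5, Slc35e2, Slc35c1 and Slc35e4, between -1.42 and -1.01. Slc35b2 supplies the sulfate donor for glycan sulfation and Slc35c1 supplies GDP-fucose. The UDP-N-acetylglucosamine carrier gene Slc35a3 lay at -0.02, with a positive value under all 5 scalings, and Slc35a2, for the UDP-galactose carrier, lay at -0.82. Slc35d1 and Slc35b1 were the 2 measured members with a ratio above 0 as deposited, at 0.39 and 0.25 on the log2 scale. Slc33a1, which brings acetyl-CoA into the endoplasmic reticulum, had signals of 570 and 564, a ratio of -0.02 as deposited and above 0 under all 5 scalings.

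Of the genes that make the substrates of these carriers, 12 were measured, with 1 at least 2-fold higher and 1 lower. Cmas, whose enzyme makes CMP-sialic acid for the Slc35a1 carrier, had signals of 1436 and 293, 4.89-fold lower (centred -1.87). Nans, an enzyme gene earlier in sialic acid synthesis, had signals of 795 and 424, 1.88-fold lower. The lysosomal sialic acid exporter gene Slc17a5 (sialin) had signals of 883 and 159, 5.56-fold lower (centred -2.05). Gmppb, which makes GDP-mannose, had signals of 92.1 and 765, 8.31-fold higher. The Slc35e3 stretch, at chr10:117746398-117746477 on the minus strand, shows its CACGTG match, which begins 80 bases before the start, in capitals.
Slc35e3: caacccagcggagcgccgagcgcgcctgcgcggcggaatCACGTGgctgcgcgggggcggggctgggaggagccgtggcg

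**Figure D3:**
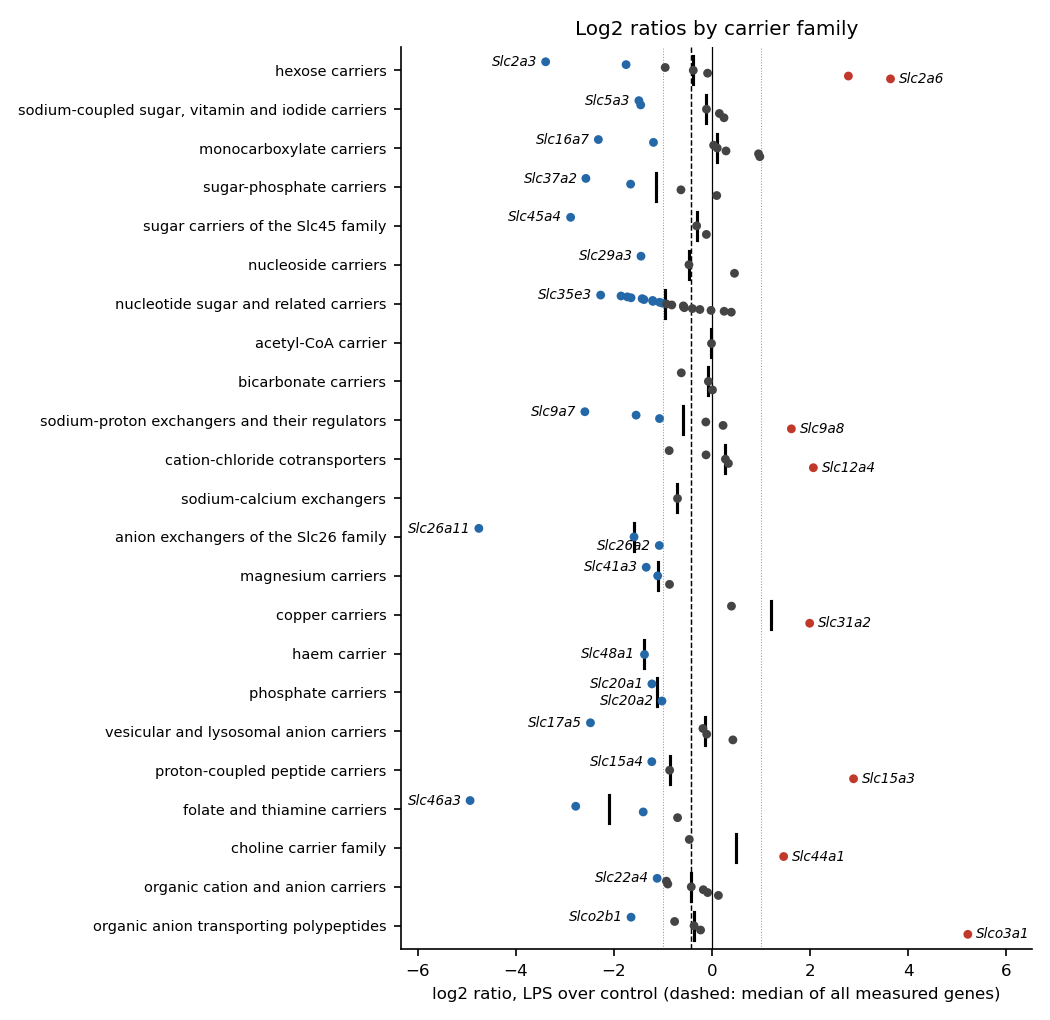
Log2 ratio of LPS over control (x) of each measured carrier gene by family (rows), 1 point per gene, red at least 2-fold higher and blue at least 2-fold lower, with a black bar at each family's median and a dashed line at -0.42, the median of all measured genes. The Slc35 row reaches from -2.27 to 0.39 with 0 red points, while the hexose row spans both sides.

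The sodium-proton exchangers and their scaffolds lay on both sides. Of 6 measured names, 1 was at least 2-fold higher and 3 lower, against 8.22% and 26.2% of all measured genes. Slc9a7, for the NHE7 exchanger of the trans-Golgi network, had signals of 875 and 145, 6.02-fold lower (centred -2.17). Slc9a9, for the endosomal exchanger NHE9, had signals of 995 and 341, 2.92-fold lower (centred -1.12), with its second measured probe set at -1.64. Slc9a8, for NHE8 of the Golgi and endosomes, was 3.07-fold higher by its chosen probe set, with signals of 60.8 and 187, but its 4 probe sets ran from -0.08 to 1.62, and their median was 0.58. The scaffold gene Slc9a3r1, whose product anchors exchangers to the cytoskeleton, had signals of 3687 and 1757, 2.10-fold lower (centred -0.65). Its other probe sets, at -0.92 and -0.75, were lower too but short of 2-fold. Both organelle exchangers that were lower stayed past 2-fold under each scaling tried.

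Of 5 measured cation-chloride cotransporter genes, 1 was at least 2-fold higher and 0 lower. Slc12a4 encodes KCC1, which lets potassium and chloride leave the cell during volume control, and had signals of 152 and 637, 4.19-fold higher (centred 2.49). Slc12a2, for the importer NKCC1, had signals of 217 and 118, 1.83-fold lower (centred -0.45), and Slc12a9 had signals of 343 and 433. Slc12a7, of the same family, had signals of 329 and 398 (log2 ratio 0.27), with its other probe set at 0.585. Slc12a4 thus stood higher and the importer gene Slc12a2 lower as deposited, but Slc12a2 came to -0.13 after loess. All 3 Slc12a2 probe sets were lower as deposited, with the others at -1.38 and, as a bound, at -0.73. Of 9 measured genes of volume regulation, 0 were at least 2-fold higher and 3 lower, and 2 higher and 0 lower after centring. Over all measured genes, 8.22% were higher and 26.2% lower, and 13.1% and 15.3% after centring. Lrrc8d and Lrrc8a, subunits of the volume-regulated anion channel, were at -1.33 and -1.23, and Cab39, a partner of the kinases that control these cotransporters, was at -1.07. None of the 3 passed 2-fold after centring. Lrrc8c, another subunit gene of the channel, added here after its values were seen, lay at 0.83 and at 1.25 after centring. Its other probe set was at 2.20, past 2-fold as deposited, while the counts use the chosen probe set. Cab39l, also added after its values were seen, lay at 0.65 (centred 1.08), with its other measured probe set at 1.59.

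Of 3 measured genes of the bicarbonate carrier family, 0 passed 2-fold. Slc4a2, for the chloride and bicarbonate exchanger AE2, had signals of 492 and 496. Slc4a11 had 88.6 and 57.5 (log2 ratio -0.62, but 0.07 after loess), and the adaptor gene Slc4a1ap had 194 and 184. Of 5 measured genes of pH regulation, 2 were at least 2-fold higher and 1 lower. Car13, a cytosolic carbonic anhydrase gene, had signals of 220 and 2233, 10.1-fold higher, with its 3 probe sets between 3.34 and 3.75. Car2, another carbonic anhydrase gene, went from 15.0, under the floor, to 147, at least 4.18-fold higher. Hvcn1, the proton channel gene of phagocytes, had signals of 591 and 294 (-1.01, and -0.58 after centring).

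The Slc26 anion exchangers held a very large difference on the lower side. Slc26a11, a sulfate and chloride carrier gene, had signals of 718 and 9.58, the latter under the floor, which makes it at least 26.9-fold lower (centred -4.33). It has a single probe set. Slc26a6, for an exchanger of chloride, bicarbonate and oxalate, had signals of 180 and 59.7, 3.01-fold lower (centred -1.17, and -0.82 after loess). Slc26a2, for the sulfate importer of the plasma membrane, had signals of 299.5 and 142, 2.10-fold lower (centred -0.65). All 3 measured members were lower, and the other 7 were under both floors.

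Of 2 copper carrier genes 1 was at least 2-fold higher, while the haem carrier gene, both phosphate carrier genes and 2 of 3 magnesium carrier genes were at least 2-fold lower as deposited. Slc31a2, whose product CTR2 regulates copper in endosomes and lysosomes, had signals of 366 and 1454, 3.98-fold higher (centred 2.41), and its second probe set was at 2.30. Slc31a1, for the copper importer CTR1, had signals of 677 and 892, a difference of 0.40 (log2), while its other probe set was at 1.12. Slc48a1, for the HRG1 carrier that takes haem out of phagolysosomes, had signals of 1308 and 499, 2.62-fold lower (centred -0.97), and its second probe set was at -2.12. The sodium-phosphate importer genes Slc20a1 (299.7 and 128) and Slc20a2 (88.6 and 43.7) were 2.34-fold and 2.03-fold lower by their chosen probe sets. Neither chosen probe set passed 2-fold after centring. The second probe set of Slc20a2 went from 156 to 17.6, under the floor, at least 5.84-fold lower (log2 ratio -2.545). The 3 magnesium carrier genes lay at -1.34 (Slc41a3), -1.11 (Slc41a2) and -0.86 (Slc41a1), and 0 passed 2-fold after centring. Slc8a1, for the sodium-calcium exchanger NCX1, was close to the floors, with signals of 43.9 and 24.7.

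Genes of copper and haem handling followed no single direction. Of 12 measured, 2 were at least 2-fold higher and 2 lower, and 4 higher and 2 lower after centring. Flvcr1, a haem and choline carrier gene, had signals of 3123 and 331, 9.44-fold lower, although its second probe set was at -0.80. Steap4, a metalloreductase gene that reduces iron and copper for import, had signals of 3.04, under the floor, and 326, at least 9.29-fold higher. The metallothionein gene Mt2 was 4.89-fold higher (1684 and 8238). Of 4 measured genes of phosphate, folate and thiamine handling, 0 were higher and 2 lower. Xpr1, the phosphate exporter gene, had signals of 1063 and 239, 4.44-fold lower, and its 7 measured probe sets ran from -2.15 to -0.56. With Slc20a1 and Slc20a2, genes of both phosphate import and phosphate export were lower as deposited.

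The lysosomal peptide carriers went opposite ways. Slc15a3, for the peptide and histidine carrier PHT2, had signals of 827 and 6107, 7.38-fold higher (centred 3.31). Slc15a4, for the related PHT1, which signalling by Toll-like receptors of the endolysosome needs, had signals of 1451 and 620, 2.34-fold lower (centred -0.80). Each was read by 1 measured probe set. Of 6 measured genes of endolysosomal sensing, 1 was at least 2-fold higher and 0 lower, and 3 higher after centring. Nod1, the receptor gene for bacterial peptidoglycan fragments of the kind these carriers move, had signals of 80.5 and 996, 12.4-fold higher. Irf5, a transcription factor gene in the pathway that PHT1 serves, had signals of 625 and 1090 (log2 ratio 0.80), with its other probe set at -0.61.

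The families Slc19 and Slc46, which hold folate and thiamine carriers, were counted together by symbol. Of 4 measured genes, 3 were at least 2-fold lower and 0 higher, and after centring 2 were lower (Slc46a3 and Slc19a2). Slc46a3 is in this count by its family name alone, not by a known folate or thiamine substrate. Slc46a3, a lysosomal carrier gene of the folate carrier family, had signals of 813 and 25.7, under the floor, at least 30.5-fold lower (centred -4.51). This ratio and that of Slc26a11 are both bounds set by the LPS floor, so the 2 genes have no order. Slc19a2, the thiamine importer gene, had signals of 282 and 41.2, 6.85-fold lower (centred -2.35), and its 3 probe sets lay between -2.78 and -1.38. Slc46a1, the proton-coupled folate importer gene, had signals of 78.5 and 29.7, 2.64-fold lower (centred -0.98). Slc19a1, the reduced folate carrier gene, lay at -0.70 (0.07 after loess) by its chosen probe set. The other measured Slc19a1 probe set went from 108 to 43.3, 2.51-fold lower as deposited. The Slc19a2 stretch, at chr1:164248846-164248925 on the plus strand, holds the kappaB match on its other strand, beginning 160 bases before the start, shown in capitals.
Slc19a2: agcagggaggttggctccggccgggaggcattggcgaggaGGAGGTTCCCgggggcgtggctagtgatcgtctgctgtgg

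Of 2 measured genes of the choline carrier family, 1 was at least 2-fold higher and 0 lower. Slc44a1, for the choline carrier CTL1, had signals of 1207 and 3323, 2.75-fold higher by its chosen probe set (centred 1.88), while its other measured probe set, with signals of 230 and 218, was at -0.08. The median of the probe sets was 0.69. Slc44a2, of the same family, lay at -0.46. Of 6 measured genes of choline phospholipid synthesis, 0 were at least 2-fold higher and 4 lower, and 3 were lower after centring. Over all measured genes, 26.2% were lower as deposited and 15.3% after centring, and the difference was not tested. Pcyt1a, the rate-setting enzyme gene of phosphatidylcholine synthesis, had signals of 1046 and 180, 5.80-fold lower, and all 4 of its probe sets were lower. The choline kinase genes Chka (159 and 37.5) and Chkb (669.9 and 212) were 4.25-fold and 3.15-fold lower.

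The organic anion carriers held the highest ratio of all 101 measured carrier genes. Slco3a1, for a carrier of prostaglandins and thyroxine, had signals of 32.0, under the floor, and 1302, at least 37.1-fold higher (centred 5.64). Its other 2 probe sets went from 10.4 to 1330 and from 14.1 to 1753, so all 3 were under the control floor and at 1302 or above with LPS. Slco2b1, an organic anion importer gene, had signals of 212 and 67.6, 3.14-fold lower (centred -1.23, and -0.88 after loess), and its second measured probe set was at -3.67. The other 3 measured Slco genes were near the floors, with signals of at most 45.2. Slc22a5, for the carnitine importer OCTN2, had signals of 269 and 142, 1.90-fold lower (centred -0.50). Of 21 Slc22 genes on the array 14 were under both floors, and 1 of the 7 measured, Slc22a4, was past 2-fold, from 57.8 to 8.83, at least 2.17-fold lower.

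Of 7 measured genes of organic anion efflux pumps, 0 were at least 2-fold higher and 2 lower, and 2 higher and 1 lower after centring. The background was 8.22% higher and 26.2% lower, and 13.1% and 15.3% after centring. Abcb1b, a drug efflux pump gene, had signals of 934 and 307, 3.04-fold lower, but its second probe set was at 0.01. Abcg2 had signals of 188 and 72.9, 2.58-fold lower, and Abcc3 had 653 and 329, 1.98-fold lower. Their median log2 ratio was 0.30. The named pumps were lower, while the other 4 of the 7 lay above 0, between 0.30 and 0.88 on the log2 scale.

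**Figure D4:**
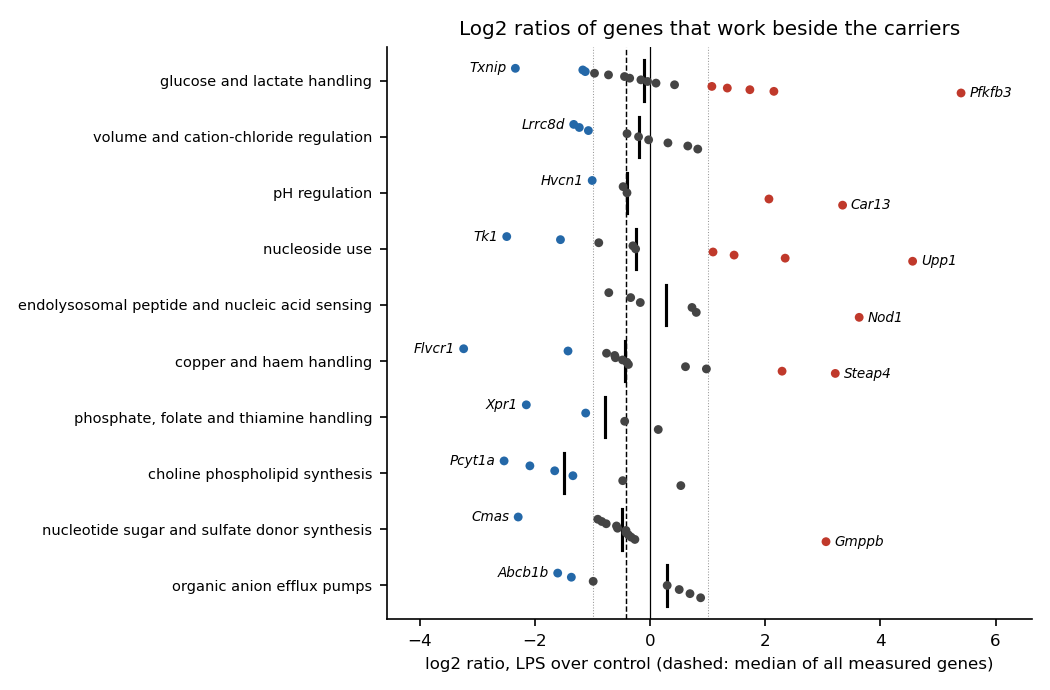
Log2 ratio of LPS over control (x) of genes that act beside the carriers, by list (rows), 1 point per measured gene, red at least 2-fold higher and blue at least 2-fold lower, with black bars at list medians and a dashed line at -0.42. Choline phospholipid synthesis has the lowest list median, -1.50, and Pfkfb3 stands at 5.40. The points of Upp1, Steap4 and Car2 are lower bounds, and the point of Pcyt1b is an upper bound.

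Probe sets of a gene gave a check within each array, though not a replicate. Of 42 carriers with 2 or more measured probe sets, 21 were past 2-fold, and in 18 of these all measured probe sets had the same direction. The 3 exceptions were Slc9a8, Slc44a1 and Slc35a5. Slc2a1, Slco3a1 and Slc31a2 on the higher side and Slc2a3, Slc45a4 and Slc19a2 on the lower side were past 2-fold by every measured probe set. Slc2a6, Slc15a3, Slc12a4, Slc46a3, Slc26a11, Slc37a2, Slc17a5, Slc9a7, Slc16a7 and Slc35e3, also among the carriers furthest apart, each rest on 1 probe set of their own.

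**Figure D5:**
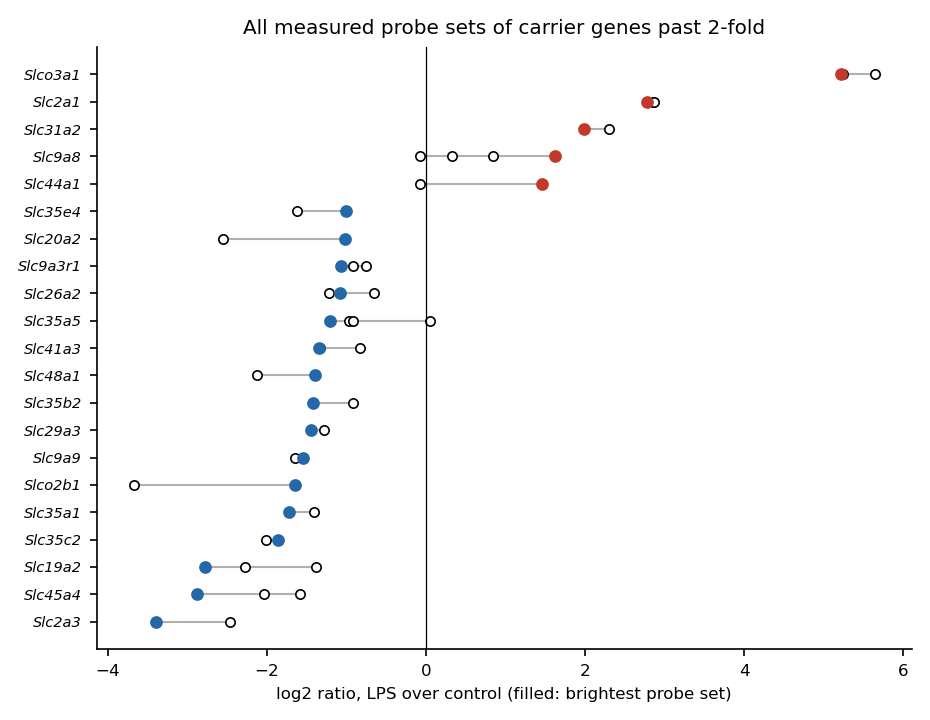
Log2 ratio of LPS over control (x) of every measured probe set of the 21 carrier genes that are past 2-fold and have 2 or more measured probe sets (rows), with the chosen probe set filled and the others open. The probe sets of 18 genes lie on 1 side of 0, while those of Slc9a8, Slc44a1 and Slc35a5 reach across it.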

How the data were processed

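Each sample is 1 array, assigned to control or LPS by its title in the labels. The deposited values are linear intensities, 1 per probe set, made by the authors with MAS5 per the submitters' processing notes. The labels name no MAS5 version, scaling target or detection calls, and none was assumed. With 1 array per group, the number of arrays limits the precision, and differences were counted by size (2-fold) with no test. Of 45037 probe sets other than 64 array controls, 34945 had 1 gene in the platform annotation, 932 several and 9160 no listed gene. Only those with 1 gene were named, and 3 probe sets with several genes of these families were left out. All 184 symbols matched the RefSeq gene table (GRCm38.p6) by identifier. Coordinates are given only for the promoter stretches, from the RefSeq promoter table of the same build. No build is named for the files. Ratios, floors and alternatives were computed with Python 3.11.15, pandas 2.3.3 and statsmodels 0.14.6 (loess span 0.4). The main ratio and floor steps were tried on simulated data that had no array-wide shift. The alternatives were not tried on simulated data.

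The members, lists and tests were chosen with earlier results of these data known. Named carriers are those at least 4-fold apart, the 10 next past 2-fold on each side, the member with the highest mean signal of each family and a fixed list of further genes, of which those without a probe set of their own are not reported here. From each of 10 lists of other genes up to 3 with the largest ratios are named. Further names account for the rest of a family or list, and some were added after their values were seen. Alternatives were a lower floor (35th percentile) and a higher one (65th), no floor with a pseudocount of 16, genes above both floors, 5 scalings (quantile, median, loess, hybridization controls and poly-A controls), the median over probe sets, plain probe sets (names ending in _at with no letter before it), and 3-fold and 1.5-fold thresholds.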

Additional observations from a re-analysis of the deposited data

Results flagged for a closer look

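A probe set outside the named genes carried a strong signal. The annotation assigns it to 2 genes of the Slc28 family, the concentrative nucleoside carriers, so no gene can be named from it. Its signal was 232 in control and 5787 with LPS (log2 ratio 4.64, centred 5.06). The single Slc28 gene with a probe set of its own, Slc28a3, was under both floors.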

How the results depend on the processing

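The count of higher carriers (8) stayed within 1.5 times under all 13 alternatives, between 6 and 12. The count of lower carriers (38) depended on the scaling: it was 25 with quantile normalization, 22 after median centring, 19 after loess and 17 at 3-fold, and between 26 and 51 in the other alternatives. The median log2 ratio of the carriers (-0.62) was -0.14 with quantile normalization, -0.20 after median centring, -0.13 after loess and -0.33 with scaling to the poly-A controls, and it stayed below 0 in all 11 alternatives that give one. The share of higher genes among those past 2-fold was 17.4% as deposited, 30.6% with quantile normalization, 31.2% after median centring, 38.7% after loess and 27.8% with the poly-A controls. These scalings remove part or all of the array-wide shift of -0.42. Of 37 named carriers past 2-fold, 0 changed sign in any alternative that measured them, and 21 stayed past 2-fold in all of them. Of 330 list counts under the 5 scalings, 260 stayed within 1.5 times. Of the others, 21 were larger counts of higher genes and 49 smaller counts of lower genes. Signals near the floor limit what can be said: the chosen probe sets of 83 carriers were under it on both arrays, and at the 35th percentile 140 carriers counted as measured.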
